A study of Rattus norvegicus with 69 samples.

Results

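The sodium-potassium pump and the calcium pumps of CA1, the output field of the hippocampus, were followed in rats after sleep deprivation (SD) or after the stress of an unfamiliar environment (NES). Members were taken by gene symbol. Every probe set annotated to Atp1b1, Atp1b2, Atp2a2, Atp2b1 or Atp2b2 was used, which gave 17 of the 8799 probe sets on the array (3, 3, 4, 3 and 4 for the genes in that order). CA1 RNA of 69 male Fisher 344 rats aged 3 to 5 months was hybridized to Affymetrix RGU34A arrays, 1 per animal. SD animals lived in pairs on inverted flower pots standing in water for 24 hours (24SD, 8 animals in cohort 2 and 8 in cohort 1) or 72 hours (72SD, 12 in cohort 2 and 8 in cohort 1). NES animals, all of cohort 1, spent 24 hours (24NES, 10 animals) or 72 hours (72NES, 6 animals) in such chambers with a grid over the pots, on which they could sleep. Home cage (HC) controls numbered 12 in cohort 2 and 5 in cohort 1, and both NES groups and the SD groups of cohort 1 share those 5. Before the experiment, SD and HC animals of cohort 1 had learned an active avoidance task, and the methods do not name the NES animals among those trained. The paper reports that it saw no training effect in its stress or array measures, without showing the data. Which animals were paired in a chamber is not given in the labels, and the tests take every animal as a separate replicate.

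Pump ATPases spend ATP to keep ions apart across membranes. The sodium-potassium pump restores the gradients that neuronal firing runs down. Its catalytic alpha subunit reaches the cell surface together with a beta subunit. Atp1b1 encodes the beta subunit typical of neurons and Atp1b2 the one typical of astrocytes, which also acts in cell adhesion. Atp2a2 encodes the pump that loads calcium into the endoplasmic reticulum. Atp2b1 and Atp2b2 encode calmodulin-activated pumps that expel calcium through the plasma membrane, Atp2b1 in most cells and Atp2b2 mainly in neurons.

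The deposited signals are on a linear scale, and levels are given here as log2 signal. Correlations of log2 signal between arrays lay between 0.909 and 0.978, and the 24NES array of animal 58 had the lowest median correlation with the others, 0.924. The 72NES array of animal 71 had a 3′ to 5′ signal ratio of GAPDH of 1.26, the highest of the 69, and the lowest median signal, 400.5. In 11 of the 17 pump probe sets array 71 held the lowest of the 6 72NES values. The summed signal of choroid plexus markers reached 34076 on the 24SD array of animal 32 in cohort 2, with a median of 3832 in that group. Markers of pyramidal neurons were uneven, with geometric mean signals of 26304 for Nrgn, 4357 for Pcp4 and 1158 for Camk2a, whereas Slc17a7 and Spink8 had 20.9 and 22.5.

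No pump probe set differed from HC with SD or NES at an adjusted p under 0.05 in limma, adjusted over 8740 probe sets. At 24SD against HC 0 of 17 passed, where 0.206% of all probe sets did, and 3 had an unadjusted p of at most 0.05, all lower (background 14.8%). At 72SD against HC 0 passed (background 0.0229%) and 1 had such a p (background 7.16%), and with both durations in 1 test it was 0 (background 0.114%) and 2 (background 10.3%). At 24NES against HC the counts were 0 (background 0.0114%) and 2 (background 10.7%), at 72NES against HC 0 (background 0%) and 1 (background 5.03%), and for both 0 (background 0%) and 0 (background 8.63%). Between durations, 72SD against 24SD gave 0 (background 0%) and 3 (background 4.11%), and 72NES against 24NES 0 (background 0%) and 0 (background 7.46%). The 3 probe sets at 72SD against 24SD were J04629_at and D90048exon_g_at of Atp1b2 and J04024_at of Atp2a2. With each array centred on its median, none of them kept an unadjusted p of at most 0.05 in limma. Without 24SD array 30, D90048exon_g_at and J04024_at did not keep it either. The median difference of the 17 from HC was 0.01 at 24SD, 0.01 at 72SD, -0.04 at 24NES and -0.05 at 72NES, beside -0.03, -0.01, -0.01 and 0.00 over all probe sets.

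The study's methods rated genes by a 1-way ANOVA over HC and both durations, on signals standardized within cohort, at an unadjusted p of at most 0.05. At that threshold, with values over 2 SD from their group mean removed as in the methods, it called 3 of the 17 for SD (background 18.2%), all lower, namely X63375exon_at of Atp1b1, J04629_at of Atp1b2 and rc_AI103671_at of Atp2b1. With no values removed it called 2 (background 10.6%), the first and second of these. For NES it called 2 with values removed (background 13.1%), X63375exon_at and D90048exon_g_at of Atp1b2, and 1 with none removed (background 9.2%), D90048exon_g_at. After adjustment over all probe sets 1 passed for SD with values removed, X63375exon_at (background 1.97%), and 0 with none removed (background 0.16%), and for NES 0 (background 0.0229%) and 0 (background 0%). Removing values far from their own group mean narrows the spread within groups, so p-values with values removed tend to be too small. Before its ANOVA the study filtered probe sets by annotation and presence calls. That filter was not applied here, so these shares and adjusted p-values have another basis than the study's. In bulk tissue, fewer cells of a type and less RNA per cell cannot be told apart.

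**Figure D1:**
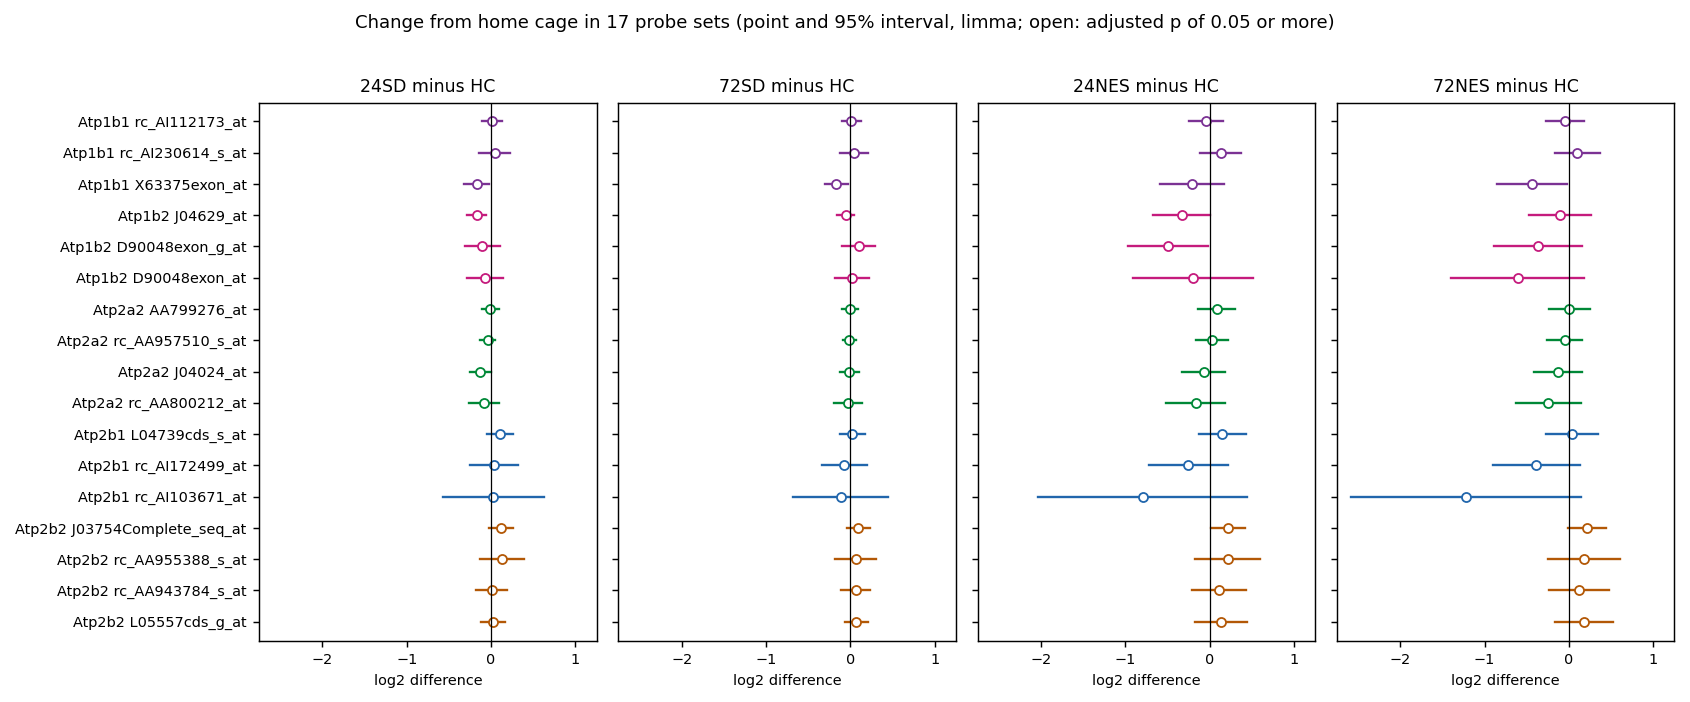
Log2 difference from HC of the 17 pump probe sets (rows) at 24SD, 72SD, 24NES and 72NES (panels), each as a point with its 95% interval from limma, coloured by gene; an open point has an adjusted p of 0.05 or more. Every point is open, and the widest intervals belong to Atp2b1 rc_AI103671_at.

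Atp1b1 was measured by 3 probe sets that did not give the same picture. On X63375exon_at the 24SD arrays of cohort 2 ran between 11.58 and 11.96 (median 11.75), against 11.28 to 12.31 (median 11.97) in the HC arrays of that cohort. In cohort 1 the 24SD arrays ran between 12.05 and 12.56 (median 12.31), against 12.37, 12.43, 12.28, 12.47 and 12.61 in the 5 HC arrays. The groups overlapped in both cohorts, and 14 of 16 24SD arrays lay below the HC mean of their cohort. The difference was -0.17 ± 0.07 (SE), 0.890-fold, with p = 0.0262 and an adjusted p of 0.270 in limma. Within cohorts it was -0.17 in cohort 2 (p = 0.137) and -0.15 in cohort 1 (p = 0.108).

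At 72SD the same probe set ran between 11.30 and 12.17 (median 11.80) in cohort 2 and between 12.16 and 12.52 (median 12.32) in cohort 1. It lay below the HC mean in 17 of 20 arrays, and the difference from HC was -0.17 ± 0.07 (SE), p = 0.0203, adjusted p = 0.612. With both durations together limma's F-test gave p = 0.0338 and an adjusted p of 0.444. The 1-way ANOVA of the study's methods, run without their filter of probe sets, gave p = 0.000526 with values over 2 SD removed (adjusted p = 0.0371). With no values removed it gave p = 0.0157 (adjusted p = 0.336). Without HC arrays 6 and 17 of cohort 2, which read low on Atp2b1, limma's unadjusted p was 0.0774 at 24SD and 0.0714 at 72SD.

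The other 2 Atp1b1 probe sets lay close to HC. On rc_AI112173_at the 24SD arrays ran between 15.10 and 15.46 in cohort 2, against 14.95 to 15.41 in HC, and between 15.01 and 15.94 in cohort 1, against 15.25 to 15.51 in HC. Its difference from HC was 0.01 (95% interval -0.11 to 0.13) at 24SD and 0.01 (-0.10 to 0.12) at 72SD. On rc_AI230614_s_at the difference was 0.04 (-0.14 to 0.22) at 24SD and 0.04 (-0.12 to 0.21) at 72SD. Animals of the same group and cohort varied little on rc_AI112173_at, with an SD of 0.16, and 6.74% of all probe sets had a smaller one.

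With 72NES, X63375exon_at ran between 10.90 and 12.43 (median 12.14), against 12.28 to 12.61 in the 5 HC arrays. The 72NES arrays lay below the HC mean in 6 of 6 cases and below every HC array in 4, and the lowest, array 71, stood apart from the rest. The difference was -0.44 ± 0.20 (SE), p = 0.0383, adjusted p = 0.944, and without array 71 it was -0.22 with p = 0.0912. At 24NES the range was 11.96 to 12.65 (median 12.23) and the difference -0.21 ± 0.18 (SE), adjusted p = 0.710. On rc_AI112173_at the differences were -0.04 (-0.25 to 0.16) at 24NES and -0.05 (-0.28 to 0.18) at 72NES.

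**Figure D2:**
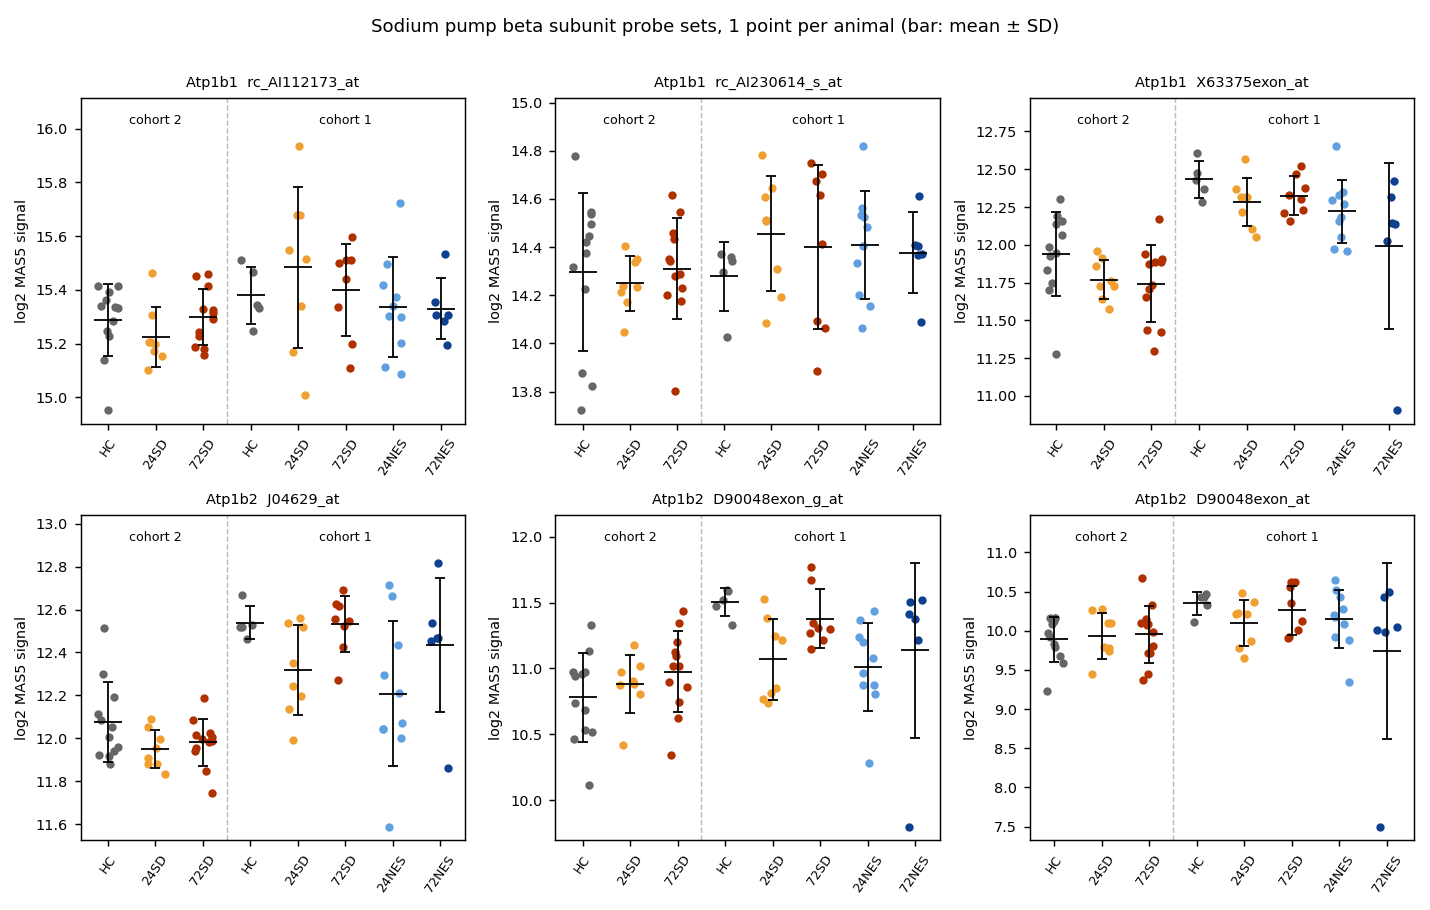
Log2 MAS5 signal of the 3 Atp1b1 and 3 Atp1b2 probe sets (panels), 1 point per animal, with the mean and SD of each group as a bar, cohort 2 left of the dashed line and cohort 1 right of it. X63375exon_at and the Atp1b2 probe sets stand lower in cohort 2, and array 71 is the low 72NES point on X63375exon_at, at 10.90.

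Atp1b2 had its smallest p for 24SD on J04629_at. The 24SD arrays of cohort 2 ran between 11.83 and 12.09 (median 11.93), against 11.88 to 12.51 (median 12.03) in HC. In cohort 1 the 24SD arrays ran between 12.00 and 12.56 (median 12.30), against 12.52, 12.67, 12.46, 12.52 and 12.53 in HC. The groups overlapped in each cohort, with 3 of 8 24SD arrays below every HC array in cohort 2 and 5 of 8 in cohort 1. The difference was -0.17 ± 0.06 (SE), 0.887-fold, p = 0.00291, adjusted p = 0.130. Within cohorts it was -0.12 in cohort 2 (p = 0.0844) and -0.22 in cohort 1 (p = 0.0354).

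At 72SD J04629_at ran between 11.75 and 12.19 (median 11.99) in cohort 2 and between 12.27 and 12.69 (median 12.55) in cohort 1, and the difference from HC was -0.06 ± 0.05 (SE), adjusted p = 0.834. The difference between 72SD and 24SD was 0.11 (0.01 to 0.22), p = 0.0337, adjusted p = 0.998. Over both durations the F-test gave p = 0.00986 and an adjusted p of 0.333.

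D90048exon_g_at, another Atp1b2 probe set, differed in sign between the cohorts at 24SD. Its 24SD arrays of cohort 2 ran between 10.42 and 11.18 (median 10.89), against 10.11 to 11.33 (median 10.84) in HC. In cohort 1 they ran between 10.73 and 11.53 (median 11.03), against 11.33, 11.48, 11.52, 11.59 and 11.59 in HC. In cohort 1 6 of the 8 24SD arrays lay below every HC array, whereas in cohort 2 0 of 8 did. The difference was 0.10 in cohort 2 and -0.43 in cohort 1. The test of cohort 2 against cohort 1 gave 0.53 ± 0.20 (SE), p = 0.0117, adjusted p = 0.576. Of the 17 probe sets 1 had an unadjusted p of at most 0.05 in that test (background 7.19%) and 0 an adjusted one under 0.05 (background 0%). D90048exon_at, the remaining Atp1b2 probe set, differed from HC by -0.07 (-0.29 to 0.14) at 24SD and 0.02 (-0.18 to 0.22) at 72SD.

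With 24NES D90048exon_g_at ran between 10.28 and 11.43 (median 11.02), and 10 of 10 arrays lay below the HC mean, 8 of them below every HC array. The difference was -0.49 ± 0.23 (SE), 0.711-fold, p = 0.0428, adjusted p = 0.441, and p lay between 0.0462 and 0.0777 with each of the 5 HC arrays left out. On J04629_at the 24NES arrays ran between 11.59 and 12.71 (median 12.14), with 8 of 10 below every HC array, and the difference was -0.33 ± 0.16 (SE), p = 0.0529, adjusted p = 0.472. Without array 58 the difference was -0.52 for D90048exon_g_at (adjusted p = 0.377) and -0.38 for J04629_at (p = 0.0233, adjusted p = 0.317).

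At 72NES J04629_at differed from HC by -0.10 (-0.48 to 0.27), D90048exon_g_at by -0.37 (-0.89 to 0.16) and D90048exon_at by -0.61 (-1.40 to 0.18). Without array 71 the differences were 0.01, -0.10 and -0.16 in that order. Leaving it out also moved 72NES against 24NES to 0.39 for D90048exon_g_at (p = 0.0128, adjusted p = 0.787), against 0.13 with it.

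Atp2a2, the calcium pump of the endoplasmic reticulum, differed little from HC on AA799276_at and rc_AA957510_s_at. On AA799276_at the 24SD arrays ran between 14.05 and 14.34 in cohort 2, against 13.83 to 14.53 in HC, and between 14.14 and 14.51 in cohort 1, against 14.08 to 14.39 in HC. On rc_AA957510_s_at the 24SD arrays ran between 13.50 and 13.72 in cohort 2, against 13.51 to 13.90 in HC, and between 13.52 and 13.81 in cohort 1, against 13.45 to 14.01 in HC. The groups overlapped in each of these pairs. AA799276_at differed from HC by -0.01 (-0.11 to 0.09) at 24SD and 0.00 (-0.10 to 0.09) at 72SD. rc_AA957510_s_at differed by -0.04 (-0.13 to 0.04) at 24SD and -0.01 (-0.09 to 0.07) at 72SD. Its SD within group and cohort was 0.11, and 0.286% of all probe sets had a smaller one.

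J04024_at of Atp2a2 had an unadjusted p of at most 0.05 at 24SD. Its 24SD arrays ran between 8.90 and 9.31 (median 9.05) in cohort 2, against 8.82 to 9.40 (median 9.18) in HC, and between 8.97 and 9.30 (median 9.07) in cohort 1, against 9.11, 9.23, 9.64, 9.41 and 9.07 in HC. The groups overlapped and 12 of 16 arrays lay below their HC mean. The difference was -0.13 ± 0.06 (SE), p = 0.0402, adjusted p = 0.315, and 8 of 16 other settings kept the unadjusted p at or under 0.05. rc_AA800212_at, the fourth probe set, differed by -0.08 (-0.26 to 0.10) at 24SD and -0.03 (-0.20 to 0.14) at 72SD. With NES the 4 probe sets differed from HC by -0.16 to 0.08 at 24NES and by -0.25 to 0.00 at 72NES. Without array 71 the 72NES difference was -0.11 on rc_AA800212_at, against -0.25 with it, and -0.05 on J04024_at, against -0.13.

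**Figure D3:**
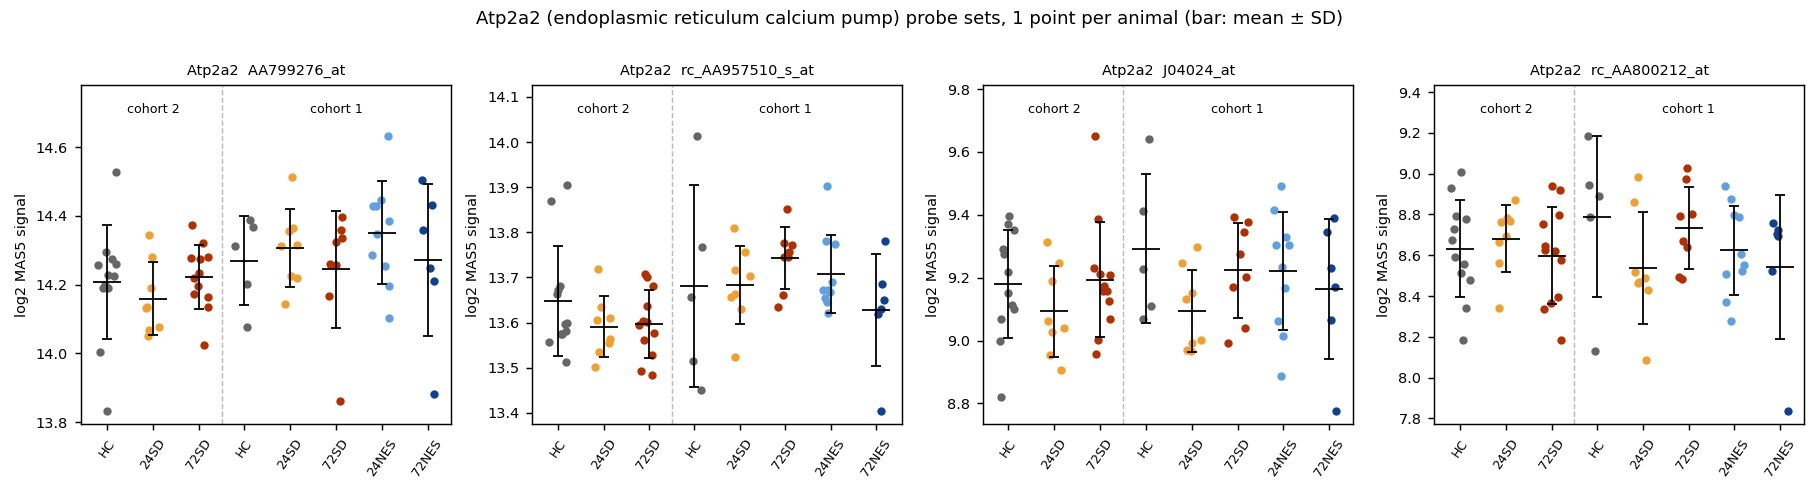
Log2 MAS5 signal of the 4 Atp2a2 probe sets (panels), 1 point per animal, with the mean and SD of each group as a bar, cohort 2 left of the dashed line. The 24SD and HC points overlap in every panel, and rc_AA957510_s_at has an SD of 0.11 within group and cohort.

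Atp2b1, a plasma membrane calcium pump, was read by L04739cds_s_at, rc_AI172499_at and rc_AI103671_at. On L04739cds_s_at the 24SD arrays ran between 12.76 and 13.41 (median 13.10) in cohort 2, against 12.28 to 13.28 (median 12.92) in HC, and between 12.10 and 12.34 (median 12.25) in cohort 1, against 12.02, 12.14, 12.66, 12.22 and 12.43 in HC. The groups overlapped within each cohort, whereas the 24SD arrays of the cohorts did not overlap. The difference from HC was 0.11 (-0.05 to 0.27) at 24SD and 0.02 (-0.12 to 0.17) at 72SD, with adjusted p-values of 0.520 and 0.946. On rc_AI172499_at it was 0.04 (-0.25 to 0.32) at 24SD and -0.07 (-0.34 to 0.19) at 72SD.

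rc_AI103671_at was the least precise of the 17, with an SD of 0.95 within group and cohort. Its signal was also low, with a geometric mean of 152, at percentile 30.8 of all probe sets, and its lowest array stood at 4.15. Its log2 differences are to be read with that low signal in mind. In cohort 2 its 72SD arrays ran between 7.14 and 8.22 (median 7.69), against 4.64 to 8.58 (median 7.78) in HC. In that HC group arrays 6 and 17 stood at 4.64 and 5.03 and the other 10 at 7.33 to 8.58. The same arrays were the lowest HC values of cohort 2 on L04739cds_s_at, at 12.28 and 12.43, with the others at 12.77 to 13.28. In cohort 1 the 72SD arrays ran between 5.16 and 7.75 (median 6.67), against 7.49, 8.29, 7.22, 7.49 and 7.94 in HC. At 72SD 0 of 12 arrays lay below every HC array in cohort 2 and 5 of 8 in cohort 1. The 72SD difference was 0.32 in cohort 2 alone (p = 0.331, adjusted p = 0.847) and below 0 in cohort 1 alone (p = 0.0400, adjusted p = 0.637). The test of the 72SD difference in cohort 2 against that in cohort 1 gave 1.33 ± 0.57 (SE), p = 0.0248, adjusted p = 0.541, and without arrays 6 and 17 it gave 0.81 with p = 0.0628. With those arrays included it was 1 of 17 with an unadjusted p of at most 0.05 there (background 7.65%), with 0 past the adjusted threshold (background 0.126%), and over both durations the counts were 1 (background 6.76%) and 0 (background 0.0343%).

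Over both cohorts the 72SD difference from HC on rc_AI103671_at was -0.11 ± 0.28 (SE, adjusted p = 0.934), and without HC arrays 6 and 17 it was -0.48 ± 0.21 (p = 0.0243, adjusted p = 0.725). On the other Atp2b1 probe sets leaving them out gave 0.03 at 24SD and -0.06 at 72SD for L04739cds_s_at, and -0.09 and -0.21 for rc_AI172499_at. With NES rc_AI103671_at differed from HC by -0.80 (-2.03 to 0.44) at 24NES and -1.22 (-2.59 to 0.15) at 72NES.

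Atp2b2, the plasma membrane pump of neurons, had its smallest p at 24NES on J03754Complete_seq_at. The 24NES arrays ran between 11.73 and 12.18 (median 11.89), against 11.66, 11.76, 11.54, 11.79 and 11.62 in HC. They lay above the HC mean in 10 of 10 cases and above every HC array in 6. The difference was 0.22 ± 0.10 (SE), 1.16-fold, p = 0.0367, adjusted p = 0.426. At 72NES, with arrays at 11.67 to 12.12 (median 11.89), it was 0.21 (-0.01 to 0.44), adjusted p = 0.968.

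With SD, J03754Complete_seq_at ran between 11.72 and 12.15 (median 11.88) at 24SD in cohort 2, against 10.99 to 12.10 (median 11.88) in HC, and between 11.65 and 12.02 (median 11.82) in cohort 1. Its difference from HC was 0.12 (-0.03 to 0.26) at 24SD and 0.09 (-0.04 to 0.23) at 72SD, and without HC arrays 6 and 17 0.06 and 0.04 at these durations. The other Atp2b2 probe sets differed at 24SD by 0.12 (-0.14 to 0.38) on rc_AA955388_s_at, 0.01 (-0.18 to 0.19) on rc_AA943784_s_at and 0.02 (-0.12 to 0.17) on L05557cds_g_at. At 24NES these 3 differed by 0.22, 0.11 and 0.14 in that order, with adjusted p-values of 0.712, 0.831 and 0.791. At 72NES L05557cds_g_at differed from HC by 0.18 ± 0.17 (SE, adjusted p = 0.968), and without array 71 by 0.35 ± 0.12 (p = 0.00776, adjusted p = 0.997).

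**Figure D4:**
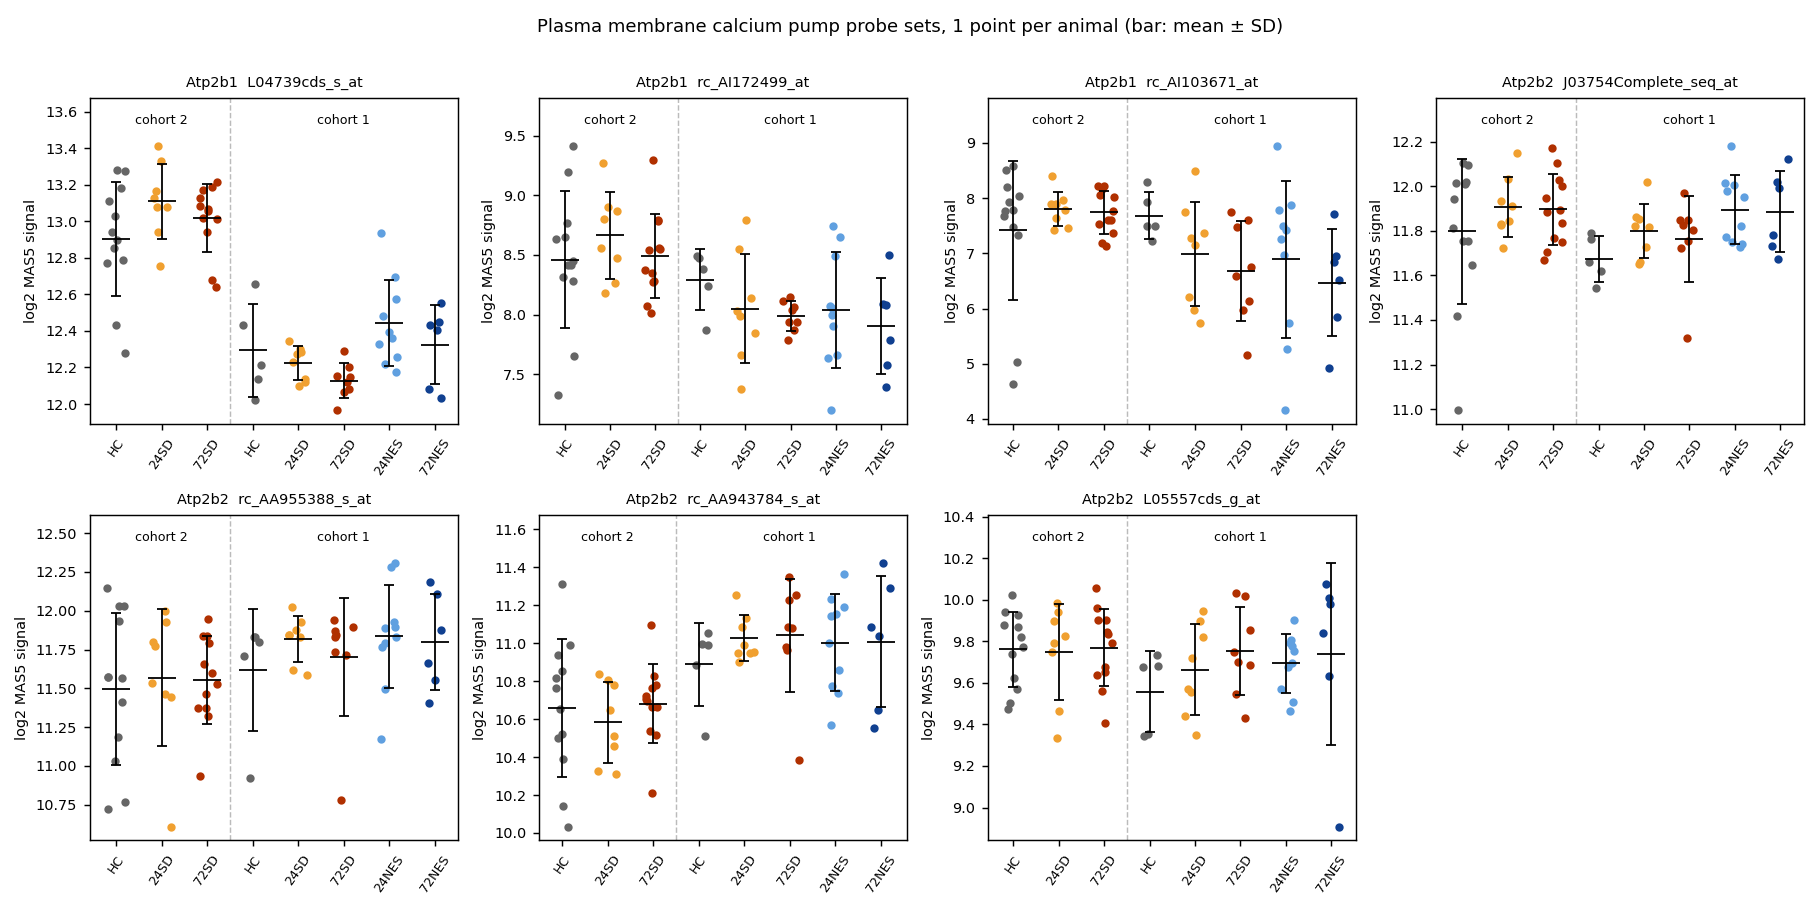
Log2 MAS5 signal of the 3 Atp2b1 and 4 Atp2b2 probe sets (panels), 1 point per animal, with the mean and SD of each group as a bar, cohort 2 left of the dashed line. L04739cds_s_at stands higher in cohort 2, with no overlap between the 24SD arrays of cohort 2 (12.76 to 13.41) and those of cohort 1 (12.10 to 12.34).

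SD and NES were compared at matched duration within cohort 1, where both lived in the chambers and the NES animals could sleep. Training is stated for the SD and HC animals and not for the NES animals, so training and treatment cannot be told apart in the comparisons of NES with SD or with HC. No pump probe set passed the adjusted threshold at 24SD against 24NES (background 0.0114%) or at 72SD against 72NES (background 0%). L04739cds_s_at of Atp2b1 ran between 12.10 and 12.34 (median 12.25) at 24SD, against 12.18 to 12.94 (median 12.38) at 24NES. The groups overlapped, with 3 of 8 24SD arrays below every 24NES array. The difference was -0.22 ± 0.09 (SE), p = 0.0243, adjusted p = 0.730, and it was 1 of 17 with an unadjusted p of at most 0.05 (background 5.97%). X63375exon_at of Atp1b1 was 1 of 17 at 72SD against 72NES (background 6.69%), with a difference of 0.33 ± 0.14 (SE), p = 0.0277, adjusted p = 0.726, and without array 71 it was 0.12 with p = 0.259. Without that array L04739cds_s_at differed by -0.25 at 72SD against 72NES (p = 0.0323, adjusted p = 0.987), against -0.20 with it.

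The cohorts, in contrast, differed on many pump probe sets. With group in the model, 10 of the 17 differed between cohort 2 and cohort 1 at an adjusted p under 0.05 (11 at an unadjusted p of at most 0.05, background 56.2%), where 50.4% of all probe sets did. Of these, 3 were higher in cohort 2 (background 22%) and 7 lower (background 28.4%), and with each array centred on its median 4 were higher and 6 lower. Over the whole array the higher ones made up 43.6% of the probe sets called, and 47.6% with arrays centred. The number called among the pumps thus lay near that of the array as a whole.

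Atp2b1 was higher in cohort 2 on all 3 probe sets. L04739cds_s_at ran between 12.76 and 13.41 in the 24SD arrays of cohort 2, against 12.10 to 12.34 in those of cohort 1, and between 12.64 and 13.21 in the 72SD arrays of cohort 2, against 11.96 to 12.29 in those of cohort 1. Neither pair overlapped, and 10 of 12 HC arrays of cohort 2 lay above every HC array of cohort 1. The difference was 0.81 ± 0.06 (SE), 1.75-fold, adjusted p = 2.04e-15, and 4.32% of all probe sets differed by as much. rc_AI172499_at differed by 0.44 ± 0.11 (adjusted p = 0.00110) and rc_AI103671_at by 0.60 ± 0.24 (adjusted p = 0.0347).

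Atp1b2 was lower in cohort 2 on all 3 probe sets. J04629_at ran between 11.75 and 12.19 in the 72SD arrays of cohort 2, against 12.27 to 12.69 in those of cohort 1, with no overlap. Of the 12 HC arrays of cohort 2, 11 lay below every HC array of cohort 1. The difference was -0.47 ± 0.04 (SE), adjusted p = 1.56e-12, and that of D90048exon_g_at was -0.42 ± 0.08 (adjusted p = 3.05e-05) and that of D90048exon_at -0.31 ± 0.09 (adjusted p = 0.00274). In Atp1b1 X63375exon_at differed by -0.53 ± 0.06 (adjusted p = 1.16e-10, with no overlap at 24SD), rc_AI112173_at by -0.15 ± 0.05 (adjusted p = 0.00898) and rc_AI230614_s_at by -0.10 ± 0.07 (adjusted p = 0.269).

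For Atp2b2, rc_AA943784_s_at had 24SD arrays at 10.31 to 10.84 in cohort 2, against 10.90 to 11.26 in cohort 1, with no overlap, and a difference of -0.35 ± 0.07 (SE, adjusted p = 8.77e-05). The other 3 differed by 0.12, -0.17 and 0.09, none with an adjusted p under 0.05, and without HC arrays 6 and 17 J03754Complete_seq_at was at 0.14 (adjusted p = 0.0115). The 4 Atp2a2 probe sets differed by -0.10 to -0.04, and rc_AA957510_s_at, at -0.10 ± 0.03 (adjusted p = 0.0166), was the 1 that passed. Training before the experiment, cohort and the processing of its arrays cannot be told apart in these differences. The paper reports that background signal on the arrays differed between the cohorts, and it standardized signals within cohort to control for that. The signals compared here were not standardized in that way. What part array background has in these differences was not tested. Of 18 probe sets of general neuronal markers, 5 were higher and 10 lower in cohort 2 at an adjusted p under 0.05, and of 20 of astrocyte markers 6 were higher and 3 lower, where 22% of all probe sets were higher and 28.4% lower. Their part in the differences of the pumps was not tested.

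**Figure D5:**
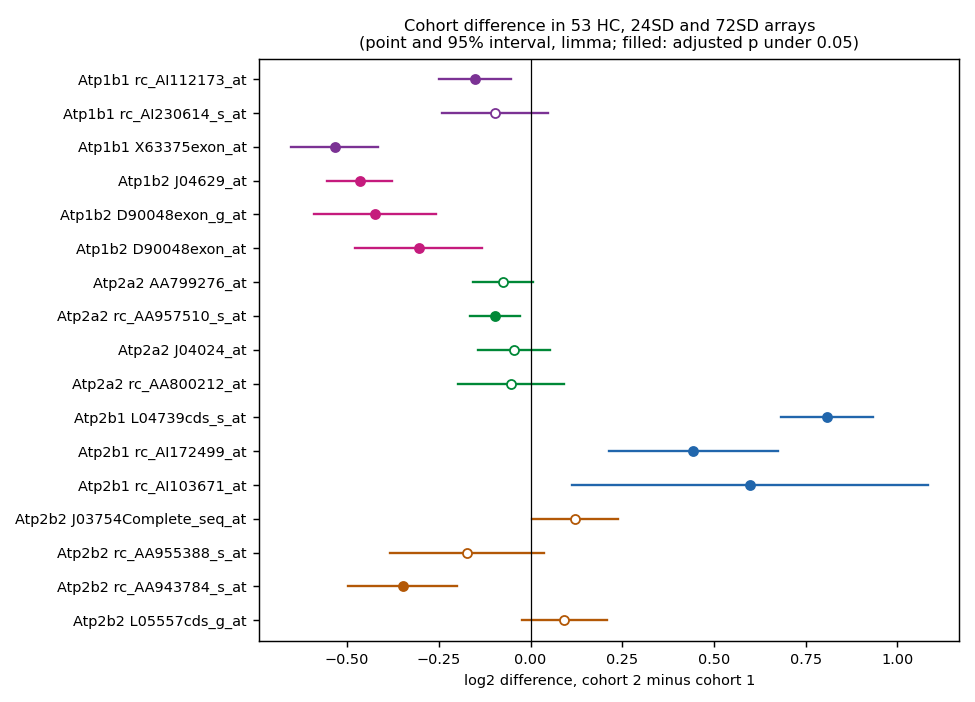
Log2 difference between cohort 2 and cohort 1 in the 53 HC, 24SD and 72SD arrays for the 17 pump probe sets (rows), each as a point with its 95% interval from limma; filled points have an adjusted p under 0.05. The 3 Atp2b1 probe sets lie right of 0, with L04739cds_s_at at 0.81, and the 3 Atp1b2 probe sets lie left of it.

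Atp2b1 and Atp1b2 were the genes whose probe sets all passed between cohorts in 1 direction, and their promoters are shown for that reason. Each window holds 300 bases. That of Atp2b1 has 56 bases before the start of the gene in the RefSeq gene table and 244 from it onward, and that of Atp1b2 has 250 and 50. Both are read 5′ to 3′ on the gene's strand from RefSeq on build GRCr8 (chr7:35622211-35622510, plus strand, for Atp2b1 and chr10:54823659-54823958, minus strand, for Atp1b2). Capitals mark GC boxes, GGGCGG on either strand (CCGCCC on the strand shown).
Atp2b1: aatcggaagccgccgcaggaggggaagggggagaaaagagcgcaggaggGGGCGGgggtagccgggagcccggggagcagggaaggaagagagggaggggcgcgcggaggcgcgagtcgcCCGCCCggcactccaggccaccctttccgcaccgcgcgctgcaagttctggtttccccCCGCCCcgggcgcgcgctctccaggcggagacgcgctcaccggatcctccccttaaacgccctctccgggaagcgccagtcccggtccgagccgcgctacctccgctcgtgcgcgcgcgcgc
Atp1b2: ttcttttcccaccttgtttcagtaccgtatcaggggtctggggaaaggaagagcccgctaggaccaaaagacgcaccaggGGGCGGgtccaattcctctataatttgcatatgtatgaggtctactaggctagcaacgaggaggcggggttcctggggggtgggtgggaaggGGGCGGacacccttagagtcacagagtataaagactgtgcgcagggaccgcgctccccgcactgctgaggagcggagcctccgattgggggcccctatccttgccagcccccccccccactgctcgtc
Atp2b1 holds 3 GC boxes and Atp1b2 holds 2. Of 33469 rat promoters of this length, 33.1% hold at least 1, 17.0% at least 2 and 8.97% at least 3. G and C make up 74.3% of the Atp2b1 sequence and 60.3% of the Atp1b2 sequence, beside a median of 51.7% over all promoters. Promoters of Atp2a2 and Atp2b2, from the same source, hold 3 GC boxes each. None of these 4 promoters holds the E-box of the circadian clock, CACGTG (6.42% of all promoters do), or the letters AGAACA of a glucocorticoid receptor site (20.7%), on either strand. A match describes the letters in this window only.

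Probe sets of 1 gene were also compared from animal to animal, as deviations from the mean of their group and cohort over the 69 arrays. Of 21 pairs 11 had a Pearson correlation with an adjusted permutation p under 0.05 (100000 permutations, two-sided, adjusted over the pairs). The 3 Atp1b2 pairs had r between 0.48 and 0.82 (rho between 0.31 and 0.72), and between 0.26 and 0.72 without the 2 arrays farthest from the median. The 3 Atp2b1 pairs had r between 0.42 and 0.54 (rho between 0.30 and 0.43), and between 0.25 and 0.44 without those 2 arrays.

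Atp1b1 was divided. rc_AI112173_at and rc_AI230614_s_at had r = 0.40 (rho 0.46, adjusted permutation p = 0.00155, r = 0.39 without the 2 farthest arrays). X63375exon_at had r = -0.12 with the first and -0.19 with the second (adjusted permutation p = 0.406 and 0.220). None of the 6 Atp2a2 pairs passed, with r between -0.16 and 0.15. In Atp2b2 J03754Complete_seq_at had r = 0.60 with rc_AA955388_s_at, and rc_AA955388_s_at had 0.71 with rc_AA943784_s_at. L05557cds_g_at had r = -0.33 with J03754Complete_seq_at (rho -0.36, adjusted permutation p = 0.0115, r = -0.40 without the 2 farthest arrays). Its other 2 pairs did not pass, with r = -0.12 with rc_AA955388_s_at and 0.00 with rc_AA943784_s_at (adjusted permutation p = 0.406 and 0.987).

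For the probe set with the highest mean signal of each member, the genes with the most similar deviations over the 69 arrays were sought among 2688 genes. For Atp1b1 they were Rps23, a ribosomal protein (r = 0.77), Ywhah, a 14-3-3 protein (r = 0.73), and COX3, a subunit of cytochrome oxidase (r = 0.72). For Atp1b2 they were Bcat1, which transaminates branched-chain amino acids (r = 0.72), Slc2a3, a neuronal glucose transporter (r = 0.72), and Sf1, a splicing factor (r = 0.71). Atp2a2 went with Atp5pf, a part of the mitochondrial ATP synthase (r = 0.71), Dync1li2, a dynein light intermediate chain (r = 0.68), and Nsfl1c, a cofactor of the p97 ATPase (r = 0.67). Atp2b1 went with Cnksr2, a synaptic scaffold protein (r = 0.65), Pja2, a ubiquitin ligase (r = 0.62), and Adgrl2, a latrophilin (r = 0.59). Atp2b2 went with Ppp1r1a, an inhibitor of protein phosphatase 1 (r = 0.79), Atp2c1, the calcium pump of the Golgi (r = 0.77), and Rpl22, a ribosomal protein (r = 0.74). All pairs share the scaling and RNA quality of the arrays, and these values are descriptions.

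Other genes that move sodium, potassium and calcium were read from a list of other pump subunits and pumps, their regulators and partners, sodium-calcium exchangers and calcium release channels. Of the list, 25 genes were measured by 43 probe sets, and none of these passed the adjusted threshold in the comparisons of SD or NES with HC or with each other. At 24SD against HC 2 were higher and 6 lower at an unadjusted p of at most 0.05, where 5.69% of all probe sets were higher and 9.08% lower. Of the 3 sodium-calcium exchangers of the plasma membrane, Slc8a1 X68812_s_at differed by -0.20 ± 0.09 (SE, adjusted p = 0.281), Slc8a2 U08141_at by -0.25 ± 0.09 (adjusted p = 0.174) and Slc8a3 U53420_at by -0.23 ± 0.08 (adjusted p = 0.181). Nptn X99338cds_i_at and Bsg X54640_at, partner proteins of the plasma membrane calcium pumps, differed by -0.13 ± 0.06 and -0.10 ± 0.05 (adjusted p = 0.327 and 0.299), and Atp2b4 U15408_at, a further plasma membrane pump, by -0.47 ± 0.23 (adjusted p = 0.315). Both higher probe sets belonged to Itpr1, a channel that releases the calcium stored by Atp2a2, J05510_at at 0.12 ± 0.05 (adjusted p = 0.235) and U38812_s_at at 0.18 ± 0.07 (adjusted p = 0.217). Of the 4 alpha subunits, Atp1a4 was measured under a symbol of its own.

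Across the cohorts 6 of the 43 were higher and 14 lower in cohort 2 at an adjusted p under 0.05, where 22% of all probe sets were higher and 28.4% lower. Slc8a2 U08141_at differed by -0.89 ± 0.07 and Slc8a1 X68812_s_at by -0.57 ± 0.07 (SE, adjusted p = 4.51e-15 and 2.48e-09), whereas Itpr1 J05510_at was higher by 0.42 ± 0.04 and Atp1b3, a further beta subunit, by 0.15 ± 0.04 (adjusted p = 3.51e-13 and 0.00156).

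No probe set of the cell type markers passed the adjusted threshold in a comparison of SD or NES, and their values are given as they lay beside those of the pumps. At 24SD against HC 16 of 18 probe sets of general neuronal markers had a negative difference (median -0.15, and -0.03 over all probe sets). The summed signal of these genes ran over 101611 to 116649 at 24SD in cohort 2, against 103299 to 143080 in HC, and over 133885 to 144953 in cohort 1, against 133356 to 153655 in HC. All 3 measured dentate granule cell genes had a positive difference on their probe set with the highest signal, with sums of 6776 to 10719 at 24SD in cohort 2, against 5199 to 9698 in HC, and 6594 to 7571 in cohort 1, against 4904 to 6568 in HC. Astrocyte markers were split, 10 positive and 10 negative of 20, with sums of 96565 to 112477 at 24SD in cohort 2, against 95174 to 120871 in HC, and 96004 to 108838 in cohort 1, against 92805 to 100985 in HC. In cohort 1 the 3 blood genes had sums of 7664 to 15475 at 24SD, 7317 to 14577 at 72SD, 6280 to 15824 at 24NES and 9224 to 14707 at 72NES, against 15078 to 17590 in HC. The 72SD and 72NES sums lay wholly below those of HC. In cohort 2 the medians lay above that of HC, with sums of 11867 to 18707 (median 17250) at 24SD and 9707 to 17277 (median 15758) at 72SD, against 9088 to 17175 (median 11646) in HC. The part of these markers in the values of the pumps was not tested.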

How the data were processed

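CA1 RNA of 69 animals was measured on 1 array each. The deposited values are intensity on a linear scale, MAS5 signals scaled array by array and, unlike the authors' tests, not standardized within cohort; no version of MAS5 is given in the sources used here. Signals were floored at 1 and log2 transformed. All 8740 probe sets other than 59 controls were fitted in limma 3.58.1 under R 4.3.3 (lmFit, eBayes). SD was fitted over 53 arrays with a cohort term, NES over the 21 HC and NES arrays of cohort 1, and SD against NES over all 37 arrays of cohort 1. The Benjamini-Hochberg adjustment ran over all probe sets, with a threshold of 0.05. Each member probe set was read separately, and other genes were named from the list of related genes or as the 3 with the highest r. Members and lists were chosen with earlier results of these data known.

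Symbols came from the platform annotation, in which 7006 probe sets carried 1 symbol and 308 several. All 5 members matched the RefSeq table by gene number. Precision is limited by how many arrays a group has. Alternatives were quantile normalization, centring, a floor of 50, the upper 50% of signals, trended and robust eBayes, the 1-way ANOVA of the methods, cohorts alone, cohort left out, other sets of arrays in 1 fit, and single arrays or a pair left out. The fits were tested on simulated data. Python 3.11.15, numpy 2.4.6, scipy 1.17.1, pandas 2.3.3 and matplotlib 3.10.9 were used.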

Additional observations from a re-analysis of the deposited data

Results flagged for a closer look

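In groups of 4 to 10 arrays, an array set far apart from the rest was sought in 102 combinations of member probe set, group and cohort. There were 11, where chance gives about 1 in 20 for independent combinations. Probe sets read on the same array are not independent, and an excess was not tested. All 11 were the lowest value of their group.

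Array 71 of 72NES accounted for 4 of them. It stood at 10.90 on Atp1b1 X63375exon_at (the others at 12.03 to 12.43), at 9.79 on Atp1b2 D90048exon_g_at (11.22 to 11.52), at 7.49 on Atp1b2 D90048exon_at (9.99 to 10.49) and at 7.84 on Atp2a2 rc_AA800212_at (8.52 to 8.76).

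Array 39 of 72SD in cohort 1 accounted for 3, all of Atp2b2. It stood at 11.32 on J03754Complete_seq_at (others 11.72 to 11.97), at 10.78 on rc_AA955388_s_at (11.71 to 11.94) and at 10.39 on rc_AA943784_s_at (10.96 to 11.35). HC array 3 of cohort 1 stood at 14.02 on Atp1b1 rc_AI230614_s_at (others 14.30 to 14.37) and at 10.93 on Atp2b2 rc_AA955388_s_at (11.71 to 11.83). On that Atp2b2 probe set 24SD array 35 of cohort 2 stood at 10.61 (others 11.44 to 12.00). On Atp2a2 AA799276_at 72SD array 41 of cohort 1 stood at 13.86 (others 14.17 to 14.40).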

How the results depend on the processing

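In limma 0 pump probe sets passed the adjusted threshold in each comparison of SD or NES under every setting run, and with each of the 5 HC arrays of cohort 1 left out (0 to 0). The ANOVA of the methods, run without their filter and with values over 2 SD removed, called 1 for SD after adjustment, Atp1b1 X63375exon_at. With no values removed it called 0, and removal by itself tends to lower p. At the methods' unadjusted threshold it called 3 for SD and 2 for NES. For the cohort difference the count was 10 in the setting reported and 3 of 5 when each gene was read by its probe set with the highest signal, by construction fewer probe sets. Under quantile normalization 9 were called, with rc_AI112173_at of Atp1b1 at -0.07 (adjusted p = 0.0805). With centred arrays rc_AA957510_s_at of Atp2a2 was no longer called, at -0.07 (adjusted p = 0.102), and J03754Complete_seq_at of Atp2b2 was called, at 0.14 (adjusted p = 0.0392); the cause was not tested. Without HC arrays 6 and 17 of cohort 2 it was called too, at 0.14 (adjusted p = 0.0115), as 1 of 11. The share of all probe sets called was not counted there, nor for the probe sets with the highest signal. Of 3326 values of single probe sets under other settings, 183 changed sign with an unadjusted p above 0.05 on both sides. Unadjusted counts moved more. Without array 71, 3 of 17 had an unadjusted p of at most 0.05 for NES, D90048exon_g_at and J04629_at of Atp1b2, lower (p = 0.00437 and 0.0344, adjusted p = 0.368 and 0.550 in limma), and L05557cds_g_at of Atp2b2, higher (p = 0.0246, adjusted p = 0.498). The share of all probe sets in that fit was not counted, and with array 71 included it was 8.63%. Leaving out arrays 58, 32, and 6 with 17 was chosen after seeing the data. Array 71 too stood out by measures of these same data, its GAPDH ratio and its median signal. The median r of the 21 pairs was 0.15, and 0.22 with centred arrays. No paired analysis was possible because each animal number occurs in 1 group only.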
